A study of Homo sapiens with 8 samples.

Results

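The crosslink sites of dyskerin were compared with those of the IgG controls made for the same antibody, in nuclei of U2OS cells. This set comprised 4 of the 8 iCLIP libraries of the series, chosen by their labels, with 2 replicates of dyskerin and 2 of its IgG. U2OS is a human osteosarcoma line that maintains its telomeres without telomerase. All 4 libraries came from cells irradiated with 1500 J/m2 of ultraviolet light at 254 nm, from which nuclei were isolated and the RNA was trimmed with RNase I. The groups differed in the beads, which carried either a mouse antibody against dyskerin or mouse IgG. The labels number the replicates without saying whether the cultures were separate, while the study's legends call the experiments independent. What was shared between them is not given, so the p-values measure only the spread between these libraries, which may be technical.

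Dyskerin is the pseudouridine synthase of the H/ACA ribonucleoprotein, in which it is joined by NOP10, NHP2 and GAR1. Its guides, the H/ACA snoRNAs, fold into a hairpin, a hinge with the H box, a further hairpin and a tail with the ACA box, and base-pair with the RNA whose uridine is to be isomerized. The related scaRNAs act in Cajal bodies, where snRNAs are modified, while C/D snoRNAs direct 2′-O-methylation with other proteins. In iCLIP the reverse transcriptase often halts where a peptide remains on the RNA, so that cDNA starts map contacts to the nucleotide, and reads with the same position and barcode count as 1 cDNA. An IgG library records what adheres to beads and what carries over during the preparation.

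Sequences of 6 guides are shown first, because the position of sites along them is compared between the groups. They are the H/ACA snoRNAs with the highest mean level over the 4 libraries, a mean to which IgG replicate 2 adds most. SNORA81 at chr3:186786675-186786852 and SNORA63 at chr3:186787300-186787431 lie on the plus strand of GRCh38 within EIF4A2. SNORA73B at chr1:28508559-28508762 and SNORA73A at chr1:28507366-28507571 lie on the plus strand within SNHG3 and RCC1. SNORA61 at chr1:28579764-28579893 lies on the minus strand within SNHG12, and SNORA66 at chr1:92840719-92840851 on the plus strand within RPL5. Each sequence runs 5′ to 3′ as genomic DNA, and capitals mark bases that each held at least 4% of the RNA's cDNAs in both dyskerin libraries.
SNORA81: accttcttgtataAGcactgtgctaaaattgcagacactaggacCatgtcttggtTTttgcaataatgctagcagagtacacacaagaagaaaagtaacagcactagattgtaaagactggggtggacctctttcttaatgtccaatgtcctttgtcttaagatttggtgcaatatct
SNORA63: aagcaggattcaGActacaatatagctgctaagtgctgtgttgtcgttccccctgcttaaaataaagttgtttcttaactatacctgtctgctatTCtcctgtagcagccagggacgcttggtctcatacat
SNORA73B: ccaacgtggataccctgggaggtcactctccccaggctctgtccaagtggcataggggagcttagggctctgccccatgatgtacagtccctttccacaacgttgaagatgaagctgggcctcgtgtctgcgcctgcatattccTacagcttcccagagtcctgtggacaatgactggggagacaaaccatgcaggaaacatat
SNORA73A: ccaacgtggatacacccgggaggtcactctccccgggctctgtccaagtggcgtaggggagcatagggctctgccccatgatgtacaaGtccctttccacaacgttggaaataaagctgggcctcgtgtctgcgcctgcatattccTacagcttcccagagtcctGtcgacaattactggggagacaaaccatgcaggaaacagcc
SNORA61: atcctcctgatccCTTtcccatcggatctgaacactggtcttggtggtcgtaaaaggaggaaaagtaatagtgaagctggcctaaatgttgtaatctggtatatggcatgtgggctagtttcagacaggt
SNORA66: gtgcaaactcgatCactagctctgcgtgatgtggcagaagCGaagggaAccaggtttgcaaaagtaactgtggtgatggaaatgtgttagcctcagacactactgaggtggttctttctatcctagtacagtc

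A few bases carried much of the signal of most of these guides. Bases 13 to 16 held capitals in 4 of the 6, while those of SNORA73A and SNORA73B began at bases 89 and 145. In SNORA81 the capitals held 35.2% and 30.03% of the cDNAs of dyskerin replicates 1 and 2. The same 5 bases held 59.0% and 58.3% in IgG replicates 1 and 2. In SNORA61 3 bases held 34.96% and 34.9% for dyskerin and 59.3% and 52.8% for IgG. In each of the 6 guides the share was higher in IgG replicate 1 than in both dyskerin libraries, and it was also higher in IgG replicate 2, where SNORA63 was at 37.2% against 40.3% and 28.5% as the exception. The IgG libraries were smaller and sites were called in each library by itself. Weak positions left out of a small library raise such shares, and the part of this was not tested. A search of the sense strand for ANANNA, the letters of the H box, found matches in all 6, the one nearest the middle starting at base 86 of SNORA81, base 60 of SNORA63 and base 61 of SNORA66. The letters ACA ended 3 nt before the annotated end of SNORA73A, SNORA73B, SNORA61 and SNORA66, 1 nt before that of SNORA63 and 78 nt before that of SNORA81. These short motifs can occur by chance at many places, and a match is a description of the sequence.

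The control libraries were much smaller than the dyskerin libraries and differed strongly from each other. The dyskerin libraries held 1693951 and 1875459 cDNAs at 902977 and 925145 significant sites. IgG replicate 1 held 146514 cDNAs at 79451 sites, and IgG replicate 2 held 8183 cDNAs at 2954 sites. The authors called sites in each library by itself, so these sums are the part that passed and not the sequencing depth, and a weakly crosslinked RNA can be at 0 in a small library and present in a large one. A single cDNA of IgG replicate 2 weighs 122 CPM, and the floor of 3 counts used for an RNA at 0 stood at 367 CPM there, 20.5 CPM in IgG replicate 1, and 1.77 and 1.60 CPM in the dyskerin libraries. CPM denotes the cDNAs of an RNA per 1000000 peak cDNAs of its library. A higher or lower CPM is thus a larger or smaller part of the library and does not measure the amount of RNA recovered. The replicates of each group were distinct libraries: chi-square over genes, divided by its degrees of freedom, was 20.9 between the dyskerin replicates and 15.3 between the IgG replicates, where sampling alone gives about 1.

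The U2OS origin was examined with markers. The mesenchymal markers VIM, FN1, CD44 and CALD1 were crosslinked in both dyskerin libraries, and 6 of 7 markers of this list had a site in at least 1 of the 4 libraries. None of the 3 leukocyte, 2 erythroid, 2 hepatocyte or 3 epithelial markers had a site in any library. The neuronal markers RBFOX3 and SNAP25 stood at 41.3 and 7.46 CPM and at 0 and 2.13 CPM in the dyskerin libraries.

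The controls reached fewer genes than dyskerin. Dyskerin sites fell in 11067 and 10632 genes, IgG sites in 4234 and 666. When every library was reduced to 8183 cDNAs by the hypergeometric expectation, 2692 and 2676 genes would be reached in the dyskerin libraries and 1750 in IgG replicate 1, against the 666 observed in IgG replicate 2. This draws from cDNAs at sites already called in a large library and does not repeat the call at the smaller size, so it does not take out the effect of size. H/ACA snoRNAs differed less, with 99.98 and 104 expected at that size for dyskerin, 98.03 for IgG replicate 1 and 96 observed in IgG replicate 2. For protein-coding genes the same numbers were 2178, 2198, 1338 and 419. The 10 fullest genes held 10.8% and 11.2% of the cDNAs assigned to genes in the dyskerin libraries, 20.2% in IgG replicate 1 and 37.4% in IgG replicate 2.

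The classes of RNA separated IgG replicate 2 from the other libraries. Protein-coding genes held 66.3% and 64.6% of the dyskerin cDNAs, 55.8% of those of IgG replicate 1 (Wilson 95% interval 55.5 to 56.0) and 14.5% of those of IgG replicate 2 (13.8 to 15.3). H/ACA snoRNAs held 12.5% and 15.8% for dyskerin, 16.2% in IgG replicate 1 (15.96 to 16.3) and 59.2% in IgG replicate 2 (58.1 to 60.3). Both IgG libraries were thus above both dyskerin libraries in the share of guides and below them in that of protein-coding genes. For the guides IgG replicate 1 was close to dyskerin replicate 2. The shares are parts of each library's own total, so a lower share of one class raises those of the others. In counts, H/ACA snoRNAs held 212328 and 296366 cDNAs for dyskerin and 23663 and 4844 for IgG. As group values, protein-coding genes held 65.5% ± 1.18 (SD, n = 2) for dyskerin and 35.1% ± 29.2 for IgG. H/ACA snoRNAs held 14.2% ± 2.31 and 37.7% ± 30.4, a difference of -23.5 percentage points. Without IgG replicate 2 that difference was -1.98 points and the one of protein-coding genes fell from 30.3 to 9.72 points, and with sites inside a single gene only, which leaves out guides within host genes, the guides differed by -7.15 points.

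**Figure D1:**
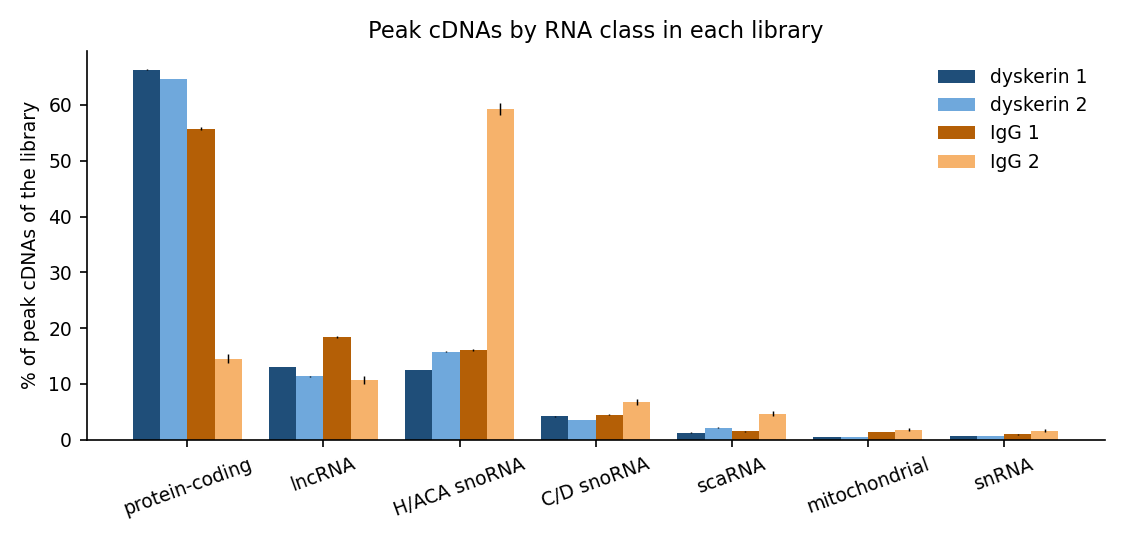
Share of peak cDNAs of a library (%, vertical axis, from 0) in 7 RNA classes, with 1 bar for each of the 4 libraries and Wilson 95% intervals as error bars. Protein-coding genes fall from 66.3% in dyskerin replicate 1 to 14.5% in IgG replicate 2, while H/ACA snoRNAs are between 12.5% and 16.2% in 3 libraries and at 59.2% in IgG replicate 2.

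Among the smaller classes, mitochondrially encoded RNAs, snRNAs and C/D snoRNAs were also higher in both IgG libraries than in both dyskerin libraries. Mitochondrial RNAs, which should be scarce in nuclei, held 0.564% and 0.520% for dyskerin and 1.37% and 1.81% for IgG. Small nuclear RNAs, the components of the spliceosome, held 0.684% and 0.603% against 0.945% and 1.58%. C/D snoRNAs held 4.19% and 3.58% against 4.49% and 6.68%. The groups overlapped for scaRNAs, at 1.30% and 2.18% against 1.52% and 4.68%, and for lncRNAs, at 13.0% and 11.4% against 18.4% and 10.7%. With 2 libraries in each group the exact two-sided permutation test over 6 arrangements cannot give a p below 0.33, which it gave for these 3 classes as well as for protein-coding genes and H/ACA snoRNAs. The intervals cover counting error only.

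In the fit chosen for the comparison 7 genes fell and none rose in dyskerin over its IgG, and the number of genes that rose depended on the fit. The edgeR quasi-likelihood test, fitted on all 8 libraries with the totals of peak cDNAs as library sizes, called 0 of 6423 genes higher (0%) and 7 lower (0.109%) at an adjusted p under 0.05. At an unadjusted p under 0.05 there were 2083 genes on the higher side and 42 on the lower side, and DESeq2 called none, with 28 and 6 at an unadjusted p under 0.05. With at least 50 counts required in 2 libraries edgeR called 763 of 3583 genes higher and 7 lower. With the 4 libraries fitted alone it called 839 of 6306 higher and 13 lower. In each of these fits a gene can meet the count filter through the dyskerin libraries alone, with no cDNA in either control. Sites were called within each library, so these counts on the higher side are descriptions. Of the 7 from the chosen fit, only SNORA81 was well covered, with 17544 and 23576 cDNAs for dyskerin and 3538 and 741 for IgG. This corresponded to 10357 and 12571 CPM against 24148 and 90554 CPM, so both IgG values lay above both dyskerin values, and the log2 difference was -2.32 with an SE of 0.461 and an adjusted p of 0.00158 in edgeR. The call was lost without IgG replicate 2 (edgeR adjusted p = 0.214), without dyskerin replicate 1 (edgeR adjusted p = 0.277), with the 4 libraries alone (edgeR adjusted p = 0.388), with TMM (edgeR adjusted p = 0.27), with a mean of at least 400 CPM required (edgeR adjusted p = 0.999) and with DESeq2 (adjusted p = 0.986).

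The other 6 genes called lower rested on few cDNAs in the controls. SYNPR, which encodes a synaptic vesicle protein, had 6 and 0 cDNAs for dyskerin and 0 and 24 for IgG. ADGRB3, an adhesion receptor, had 16 and 11 against 0 and 10, and the netrin receptor UNC5D had 0 and 3 against 0 and 7. LIX1, PPP1R1C and the apoptosis inhibitor BCL2 had no more than 6 cDNAs in any of the 4 libraries. The fit required at least 10 counts in at least 2 of its 8 libraries. UNC5D, LIX1, PPP1R1C and BCL2 met this only through libraries outside the comparison, and SYNPR through IgG replicate 2 together with a library outside it. All of the 6 genes but BCL2 drew on IgG replicate 2, in which a single cDNA weighs most, and BCL2 drew on 4 cDNAs of IgG replicate 1.

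The levels of the abundant genes are described by the order of the libraries. Of 394 genes with a mean of at least 400 CPM over the 4 libraries, 55 (14%) had both dyskerin values above both IgG values and 53 (13.5%) had both below. The mean includes IgG replicate 2, so an RNA high in that library alone could enter, and these counts are descriptions. Protein-coding genes made up 48 of the 55 and 3 of the 53, out of 228 in all. H/ACA snoRNAs made up none of the 55 and 33 of the 53, out of 80. For C/D snoRNAs the counts were 2 above and 8 below of 29, and for lncRNAs 3 and 2 of 36.

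The order of levels among H/ACA snoRNAs was similar in all libraries. Over the 80 guides, the Spearman correlation of CPM was 0.940 between the dyskerin replicates, 0.916 and 0.865 between them and IgG replicate 1, 0.889 and 0.921 between them and IgG replicate 2, and 0.849 between the IgG replicates. Over the 228 protein-coding genes it was 0.633 between the dyskerin replicates, 0.776 and 0.542 with IgG replicate 1, -0.187 and 0.0153 with IgG replicate 2, and -0.0822 between the IgG replicates. Most of these genes are at 0 in IgG replicate 2, which limits the last 3 values. These values are across genes, which share their libraries and are not independent.

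SNORA81 has been given above, and the next guides were likewise far higher in IgG replicate 2 than in IgG replicate 1. SNORA73B, a guide-like RNA of the U17 family with a role in rRNA processing, stood at 8933 and 8207 CPM for dyskerin, 8784 CPM in IgG replicate 1 and 41305 CPM in IgG replicate 2. The mean of dyskerin was 0.976 times the value of IgG replicate 1 (exact 95% counting interval 0.921 to 1.03). Its paralog SNORA73A stood at 6931 and 7217 CPM against 6081 and 25296 CPM, and reads from sequence that both share cannot be placed with certainty. SNORA63 stood at 4975 and 6896 CPM against 7610 and 33851 CPM, and SNORA66 at 2422 and 3687 CPM against 3925 and 19675 CPM, both below both controls. SNORA61 was at 4235 and 4808 CPM against 10477 and 26396 CPM, and its dyskerin mean was 0.432 times IgG replicate 1 (0.411 to 0.457). None of these 5 passed in edgeR, with the smallest adjusted p of 0.106 for SNORA61.

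Over all H/ACA snoRNAs with at least 10 cDNAs in IgG replicate 1, the ratio of the dyskerin mean to that library had a median of 0.945 and ran from 0.432 to 3.10, with 47 of 101 above 1. Over all 1627 genes with that many cDNAs the median was 1.08 and 890 (54.7%) were above 1. In total 144 of the 246 annotated H/ACA snoRNAs had a site, 133 of them in both dyskerin libraries, 113 in IgG replicate 1 and 96 in IgG replicate 2. The H/ACA snoRNA list had 1 member called lower by edgeR, SNORA81, and 0 higher, beside 0.109% and 0% of all genes tested. TERC, the template RNA of telomerase and itself an H/ACA RNA, had no site, which allows a share of up to 0.000177% and 0.000160% in the dyskerin libraries and of 0.00205% and 0.0367% in the IgG libraries.

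Among scaRNAs the groups mostly overlapped. SCARNA10 stood at 2816 and 4516 CPM for dyskerin and 4034 and 12709 CPM for IgG, and SCARNA12 at 1747 and 2844 against 2136 and 5377 CPM. SCARNA13 was at 1543 and 2798 CPM against 1508 and 5255 CPM, and SCARNA11 at 1204 and 1907 against 1822 and 6110 CPM. SCARNA5 was below both controls, at 965 and 1524 CPM against 1631 and 5010 CPM. SCARNA1, a guide for U2 snRNA, was at 315 and 364 CPM against 143 CPM in IgG replicate 1, which held 21 of its cDNAs, and 367 CPM in IgG replicate 2, which held 3. Its ratio to IgG replicate 1 was 2.37 (1.55 to 3.86). Over the 21 scaRNAs with at least 10 cDNAs in IgG replicate 1 the median ratio was 1.16, with 14 above 1. Over all genes with that many cDNAs 54.7% were above 1.

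C/D snoRNAs are not known partners of dyskerin, and their levels ran on both sides of the controls. SNORD3A, the U3 snoRNA that acts in cleavage of the rRNA precursor, stood at 5295 and 6438 CPM for dyskerin and 16203 and 23708 CPM for IgG. All 4 values were separated by group, and the dyskerin mean was 0.362 times IgG replicate 1 (0.349 to 0.380), with an edgeR adjusted p of 0.139. SNORD36C was at 491 and 371 CPM against 921 and 1100 CPM. SNORD101 lay on the other side, at 563 and 672 CPM against 321 and 122 CPM, where IgG replicate 2 held a single cDNA. SNORD76, SNORD27, SNORD26 and SNORD34 had overlapping groups and ratios to IgG replicate 1 between 0.879 and 1.26.

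Several other abundant non-coding RNAs were lower in both dyskerin libraries, and some were not. MALAT1, the speckle lncRNA and the strongest single RNA of the set, held 41857 and 44633 CPM for dyskerin and 91698 and 81510 CPM for IgG. The IgG values lay above both dyskerin values by at least 1.83 times, and the edgeR adjusted p was 0.163. MT-RNR2, the large rRNA of mitochondria, was at 5259 and 4943 CPM against 13412 and 16253 CPM. The U1 variant RNVU1-28 was at 1414 and 712 CPM against 3611 and 6355 CPM, and the U6 copy RNU6-4P at 530 and 823 CPM against 2054 and 3422 CPM, both from families of near-identical copies whose reads could be split. NEAT1, the lncRNA of paraspeckles, was at 1526 and 899.5 CPM against 792 and 855 CPM, above both controls by a narrow margin. RN7SK, the RNA that restrains the elongation factor P-TEFb, was at 571 and 560 CPM against 935 and 122 CPM. RNU2-2P, a U2 gene, was at 357 and 754 CPM against 416 and 2322 CPM, with overlapping groups.

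RMRP and GAPDH were found with dyskerin and in neither control. RMRP, the RNA of the RNase MRP endonuclease, had 184 and 251 cDNAs for dyskerin and 0 and 0 for IgG, at least 5.92-fold higher than a floor of 3 counts in IgG replicate 1. GAPDH, the glycolytic dehydrogenase, had 350 and 559 cDNAs against 0 and 0, at least 12.3-fold higher by the same floor. IgG replicate 2 was too small to bear on either RNA, since its own floor lay above their dyskerin levels. RMRP and GAPDH had means of 60.6 and 126 CPM over the 4 libraries. Absence from IgG replicate 1 was shared by other RNAs, with 17 of 79 short RNAs and 334 of 1150 exonic features at 30 to 100 CPM. From 100 to 300 CPM it was 7 of 69 and 16 of 421. The edgeR adjusted p was 0.139 for RMRP and 0.106 for GAPDH.

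The mRNAs that lay furthest above both controls included several of large structural proteins. FLNA, the actin crosslinker filamin A, stood at 820 and 897 CPM for dyskerin, 88.7 CPM in IgG replicate 1, with 13 cDNAs, and 0 in IgG replicate 2. Its dyskerin mean was 9.67 times IgG replicate 1 (5.66 to 18.2) and at least 2.34-fold higher than the floor of IgG replicate 2. COL1A1, a chain of collagen I, was at 577 and 928 CPM against 177 CPM and 0, a ratio of 4.24 (2.92 to 6.58). SYNE1, a nesprin of the nuclear envelope, was at 903 and 1057 CPM against 437 CPM and 0, a ratio of 2.24 (1.76 to 2.93). MYO18B and MACF1, a myosin and a linker of actin and microtubules, had ratios of 2.11 and 1.90. TENM2, JMJD1C and VPS13B had ratios between 1.55 and 2.02 and no cDNA in IgG replicate 2. None passed in edgeR, where the adjusted p of FLNA was 0.150.

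The 5 protein-coding genes with most signal did not follow FLNA. NTM, a neuronal adhesion protein, stood at 10257 and 8966 CPM for dyskerin, 9644 CPM in IgG replicate 1 and 1222 CPM in IgG replicate 2. GPHN, which encodes gephyrin, was at 6448 and 3771 CPM against 8736 CPM and 0, and the membrane protein gene DCBLD2 at 4632 and 3201 CPM against 8491 CPM and 0. The adhesion gene SDK1 was at 5698 and 3793 CPM against 6040 CPM and 0, and DST, a plakin, at 7350 and 7330 CPM against 10866 and 1344 CPM. All 5 were thus at or below IgG replicate 1 in their dyskerin mean and above IgG replicate 2. Introns held most of the signal of NTM, with 9961 and 8462 CPM of the dyskerin level, and of GPHN, DCBLD2 and SDK1, while DST was read mainly in exons, at 5613 and 6138 CPM.

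The 3 abundant mRNAs below both controls were ACVR2B, HSP90AA1 and RPL13. ACVR2B, a receptor of activins, had 201 and 73 cDNAs for dyskerin and 73 and 37 for IgG, or 119 and 38.9 CPM against 498 and 4522 CPM. Its signal lay on exons, at 17 and 16 sites for dyskerin and 14 and 13 for IgG, and the edgeR adjusted p was 0.106. The hairpin of MIR21, a miRNA, showed a like pattern from 57 and 13 cDNAs against 10 and 13.

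The mRNAs of ACTB, SRRM2 and EEF2 were above both controls, for the last at levels under the floor of IgG replicate 2. ACTB, cytoplasmic actin, stood at 602 and 835 CPM for dyskerin and 423 and 367 CPM for IgG, where IgG replicate 2 held 3 cDNAs. Its ratio to IgG replicate 1 was 1.70 (1.33 to 2.24). SRRM2, a speckle scaffold protein, was at 2685 and 3042 CPM against 2300 CPM and 0, a ratio of 1.25 (1.12 to 1.40). EEF2, the translocation factor of the ribosome, was at 156 and 209 CPM against 88.7 CPM from 13 cDNAs and 0, a ratio of 2.06 (1.20 to 3.91).

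Gene lists were described by their summed CPM, which a single gene can dominate. Cytoskeleton and matrix mRNAs held 11411 and 12701 CPM for dyskerin, 7829 CPM in IgG replicate 1 and 855 CPM in IgG replicate 2, so both dyskerin values were above both controls. Of its members with at least 10 cDNAs in IgG replicate 1, 12 of 14 had a ratio above 1, against 54.7% of all such genes. The median was 1.81 against 1.08 over all genes. Glycolysis mRNAs held 968 and 1173 CPM against 321 CPM and 0, with PKM at 315 and 324 CPM against 157 CPM and ENO1 at 177 and 226 CPM against 102 CPM. Mitochondrially encoded RNAs, mostly MT-RNR2, held 5639 and 5202 CPM against 13705 and 18086 CPM, and nuclear lncRNAs, mostly MALAT1, 45474 and 47290 CPM against 93465 and 84566 CPM. No member of these 4 lists passed in edgeR, where 0.109% of all genes were called lower.

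Chaperone, translation factor and ribosomal protein mRNAs had overlapping groups or lay between the controls, and splicing proteins lay just above IgG replicate 1. Chaperones held 4704 and 5689 CPM for dyskerin, 7911 CPM in IgG replicate 1 and 2444 CPM in IgG replicate 2. Of 8 members with at least 10 cDNAs in IgG replicate 1, 1 had a ratio above 1, against 54.7% of all such genes. HSP90AA1, a cytosolic HSP90, was below both controls, at 1079 and 1114 CPM against 2491 and 1466 CPM. Translation factors held 5565 and 7775 CPM against 6040 and 1833 CPM, and EIF3A, an initiation factor subunit, 1057 and 1751 CPM against 1775 and 489 CPM. Speckle and splicing proteins held 11772 and 14176 CPM against 11467 and 2077 CPM. Of 22 members with at least 10 cDNAs in IgG replicate 1, 17 had a ratio above 1, with a median of 1.24. Cytosolic ribosomal proteins held 2496 and 3249 CPM against 2259 and 2688 CPM, with overlapping groups. The sum of IgG replicate 2 rested mostly on RPL13 and RPL12, with 11 and 6 of its 22 cDNAs for this list. These lay at 3 and 2 sites, so the overlap is not a trait of the list as a whole. Replication-dependent histones held 148 and 204 CPM against 20.5 CPM, from 3 cDNAs, and 0.

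The mRNAs of the H/ACA proteins themselves were weakly crosslinked. DKC1, which encodes dyskerin, had 90 and 113 cDNAs for dyskerin and 4 and 0 for IgG. GAR1 had 17 and 2 against 0 and 0, and NOP10 and NHP2 had none in any library. NOLC1, a nucleolar chaperone of snoRNPs, had 217 and 230 against 4 and 0, a ratio to IgG replicate 1 of 4.59 (1.78 to 16.9). NCL, the abundant nucleolar protein nucleolin, lay between the controls, at 1605 and 2517 CPM against 3146 and 733 CPM. The list of H/ACA and nucleolar proteins held 2972 and 4233 CPM against 4552 and 733 CPM.

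**Figure D2:**
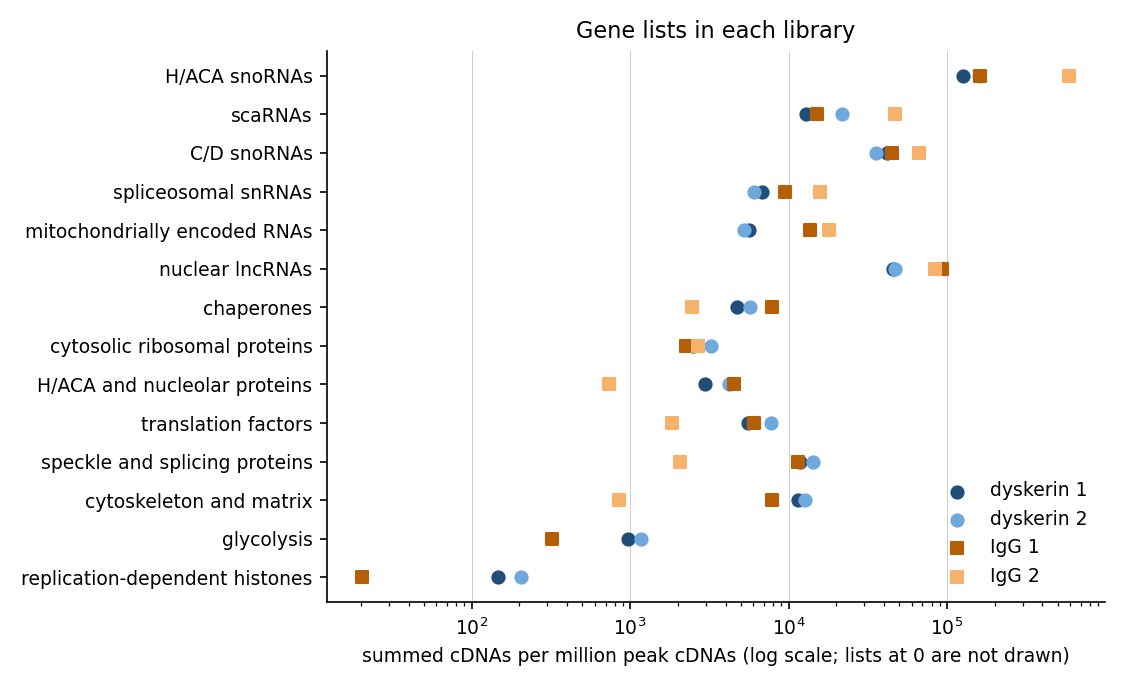
Summed CPM of 14 gene lists (rows) on a log axis, with circles for the dyskerin libraries and squares for the IgG libraries. Lists at 0 in IgG replicate 2 have no square for it. Both dyskerin circles are right of both squares for cytoskeleton and matrix and, narrowly, for speckle and splicing proteins. They are right of the only square for glycolysis and replication-dependent histones. They are left of both squares for H/ACA snoRNAs, C/D snoRNAs, mitochondrially encoded RNAs, snRNAs and nuclear lncRNAs.

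The ratio of dyskerin to IgG replicate 1 was lower for RNAs with a higher mean level. That mean includes IgG replicate 1, the denominator of the ratio, so an RNA high in this library moves to a higher level and a lower ratio by construction. Of 1150 exonic features with a mean of 30 to 100 CPM, 88.9% had a ratio above 1 with a median of 2.93, but 334 of them had no cDNA in IgG replicate 1. Such features have no ratio and were counted as above 1 and above every median, at each level and for each kind of feature. Among introns of 30 to 100 CPM they were 212 of 754. From 100 to 300 CPM the median was 1.62 over 421 exonic features, from 300 to 1000 CPM it was 1.11 over 95, and from 1000 CPM it was 0.647 over 21. Introns followed the same slope at lower values, with medians of 2.06, 1.10, 0.775 and 0.583 over 754, 365, 186 and 44 features. At each level the exonic median was therefore above the intronic one. Short RNAs ran from 1.69 to 0.909. Calls made within each library leave out weak RNAs in the smaller library first, and the part of this in the slope was not tested.

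**Figure D3:**
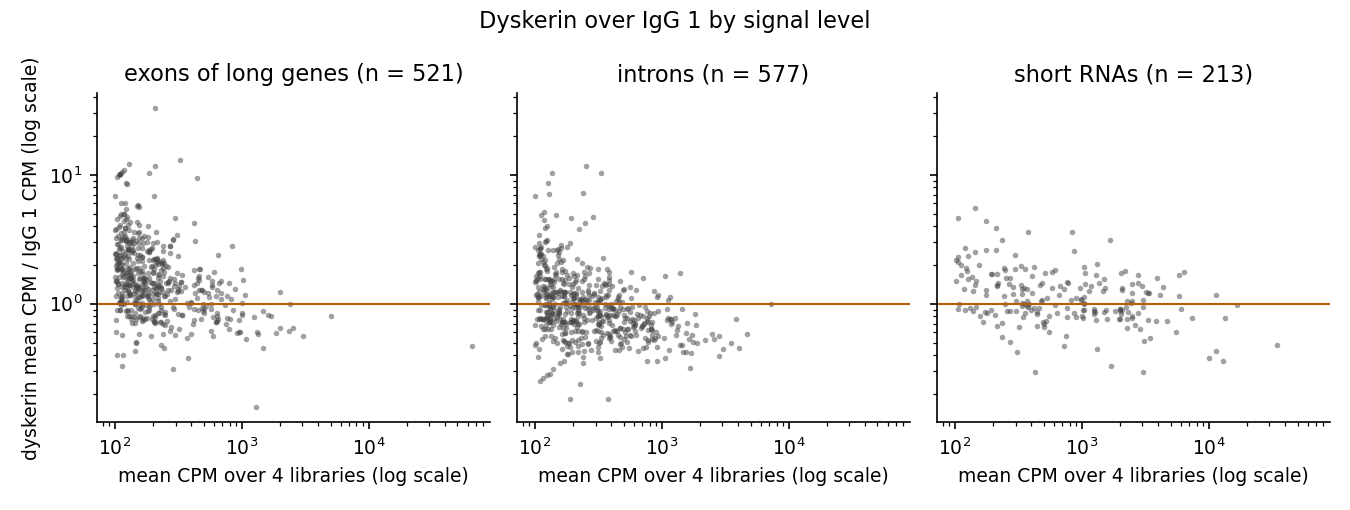
Ratio of the dyskerin mean CPM to the CPM of IgG replicate 1 (vertical log axis) against the mean CPM over the 4 libraries (horizontal log axis) for exons, introns and short RNAs with at least 100 CPM and a cDNA in IgG replicate 1. Each point is 1 gene and the line marks a ratio of 1, and the clouds of exons and introns slope down from ratios above 1 to below 1.

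Within protein-coding genes, coding sequence held a larger part of the cDNAs with dyskerin. Of the cDNAs in the 4 regions of these genes, it held 43.5% and 55.8% in the dyskerin libraries, 36.2% in IgG replicate 1 and 31.4% in IgG replicate 2, which had 367 such cDNAs. Introns held 52.5% and 39.9% for dyskerin and 61.4% and 60.2% for IgG, so both dyskerin values lay below both controls. The groups overlapped in the 5′ UTR, at 1.57% and 2.03% against 0.979% and 2.57%, and in the 3′ UTR, at 2.41% and 2.28% against 1.43% and 5.83%. Taken over all peak cDNAs, where the low protein-coding share of IgG replicate 2 enters, coding sequence held 28.3% and 35.3% against 19.9% and 4.48%, and introns 34.2% and 25.2% against 33.7% and 8.58%.

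Per unit of length, coding sequence did not separate the groups. Sites per kb of coding sequence made up 81.97% and 83.5% of the summed density of the 4 regions for dyskerin, and 84.8% and 78.0% for IgG, so that IgG replicate 1 was above both dyskerin libraries. The difference of the group means was 1.32 percentage points, below the spread of the controls. Introns had 2.58% and 1.68% against 3.79% and 2.63%, with the 5′ UTR at 11.5% and 11.8% against 8.57% and 9.42%. A strong preference of sites for coding sequence over introns per unit of length was thus present in the controls as well.

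Most positions of the controls were also positions of dyskerin. Of the sites of IgG replicate 1, 69.3% lay at the same nucleotide as a site of at least 1 dyskerin library, and they held 80.6% of its cDNAs. For IgG replicate 2 the shares were 82.2% and 87.8%. Within H/ACA snoRNAs 98.8% and 98.4% of the IgG sites were shared, and within coding sequence 76.1% and 55.9%. Within introns of protein-coding genes 61.7% of the sites of IgG replicate 1 were shared but 21.1% of the 351 sites of IgG replicate 2. In the other direction, 4.94% and 4.63% of the dyskerin sites lay at a position of IgG replicate 1, with 26.5% and 29.2% of the cDNAs. Positions of IgG replicate 1 held 85.7% and 83.5% of the dyskerin cDNAs of H/ACA snoRNAs, but 9.47% and 9.55% of those of coding sequence. Positions of the other dyskerin replicate held 99.3% and 98.4% of the H/ACA snoRNA cDNAs and 45.1% and 39.5% of the coding sequence cDNAs of dyskerin replicates 1 and 2. IgG replicate 1 had far fewer sites than either dyskerin library, and the part of this in the low shares was not tested.

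Along the guides, dyskerin sites reached further toward the 3′ end than IgG sites. Profiles were averaged with equal weight over the 62 H/ACA snoRNAs and H/ACA-type scaRNAs that had at least 20 cDNAs in each of the 4 libraries, so that the same RNAs entered for every library. Positions past the midpoint held 25.02% and 23.3% of the cDNAs of an RNA for dyskerin and 16.6% and 17.3% for IgG. The group means were 24.1% ± 1.25 (SD, n = 2) and 16.9% ± 0.495, and the exact permutation test (two-sided) gave p = 0.33, the smallest it can give. The difference of 7.23 points was 14.8 points with each site counted once. Both dyskerin values were above both IgG values in 42 of the 62 RNAs and below in 1. The first and second decile of the RNA held 13.8% and 14.9% for dyskerin replicate 1, 15.5% and 13.5% for replicate 2, and 20.5% and 19.4% and 20.4% and 17.2% for the IgG libraries. In the eighth decile dyskerin held 5.62% and 5.03% against 2.47% and 3.16%. Calls made within each library leave out weak positions in a smaller library first. SNORA81, for example, had 152 and 152 sites for dyskerin and 79 and 59 for IgG. The part of this in the differences along the guides, including the one with each site counted once, was not tested.

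**Figure D4:**
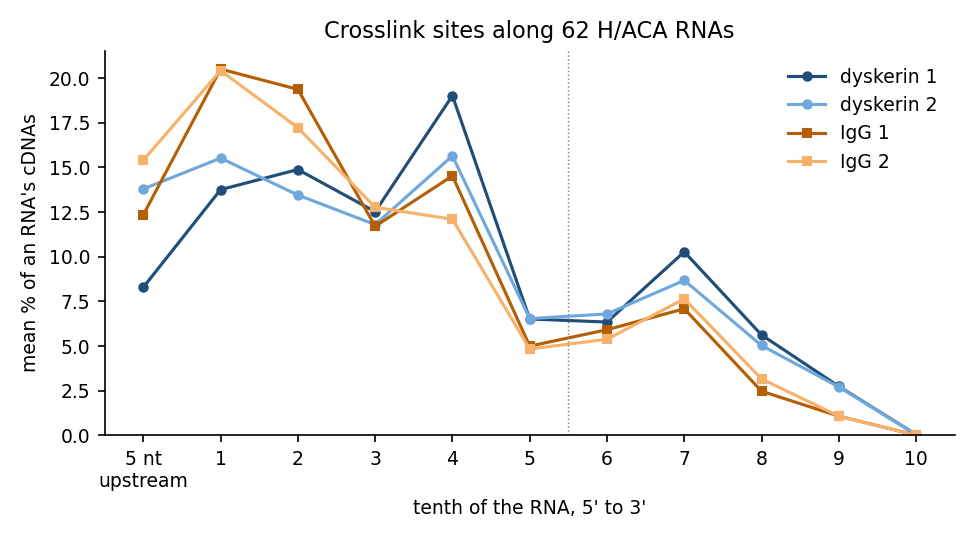
Mean share of an RNA's cDNAs (%, vertical axis) in the 5 nt before the annotated start and in each decile of 62 H/ACA RNAs from 5′ to 3′, with a line for each library and a dotted line at the midpoint. The IgG lines are highest in the first decile, at 20.5% and 20.4%, and the dyskerin lines lie above them from the fourth decile to the ninth.

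Of the 6 guides shown, 4 followed this pattern. In SNORA81 12.1% and 13.3% of the dyskerin cDNAs lay past the midpoint, against 1.92% and 1.48% for IgG. In SNORA66 the shares were 18.3% and 12.7% against 3.65% and 3.11%, and in SNORA61 10.8% and 9.24% against 0% and 3.70%. In SNORA63 they were 37.8% and 34.2% against 7.98% and 27.4%, so the controls differed from each other. SNORA73B and SNORA73A did not follow, with 35.2% and 31.3% against 54.3% and 38.2% for SNORA73B and 35.9% and 33.0% against 39.7% and 35.7% for SNORA73A.

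The fullest nucleotide was often the same in dyskerin and IgG but held a larger part of the control signal. Weak positions that miss the call in a small library raise the shares of those kept. SNORA63 had 99 and 110 sites for dyskerin and 53 and 39 for IgG, and the part of this in the shares was not tested. In SNORA81, base 45 held 8.85% and 7.69% of the dyskerin cDNAs and 21.8% and 26.6% of the IgG cDNAs. In SNORA63, base 13 held 14.6% and 10.9% against 38.7% and 20.9%. Base 96 of SNORA63, toward the 3′ end, held 7.38% and 5.52% against 1.35% and 4.69%. In SNORA61, base 16 held 19.2% and 16.9% against 37.0% and 25.9%. SNORA73B differed, since the position 2 nt before its annotated start held more than any base within it for dyskerin, at 11.7% and 12.6%, against 9.63% and 27.2% for IgG on both sides. Its base 145 held 9.33% and 10.9% against 27.8% and 21.9%. The 5 nt before the start held 26.8% and 30.4% of the dyskerin cDNAs of SNORA73B and 14.3% and 39.1% of the IgG cDNAs.

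**Figure D5:**
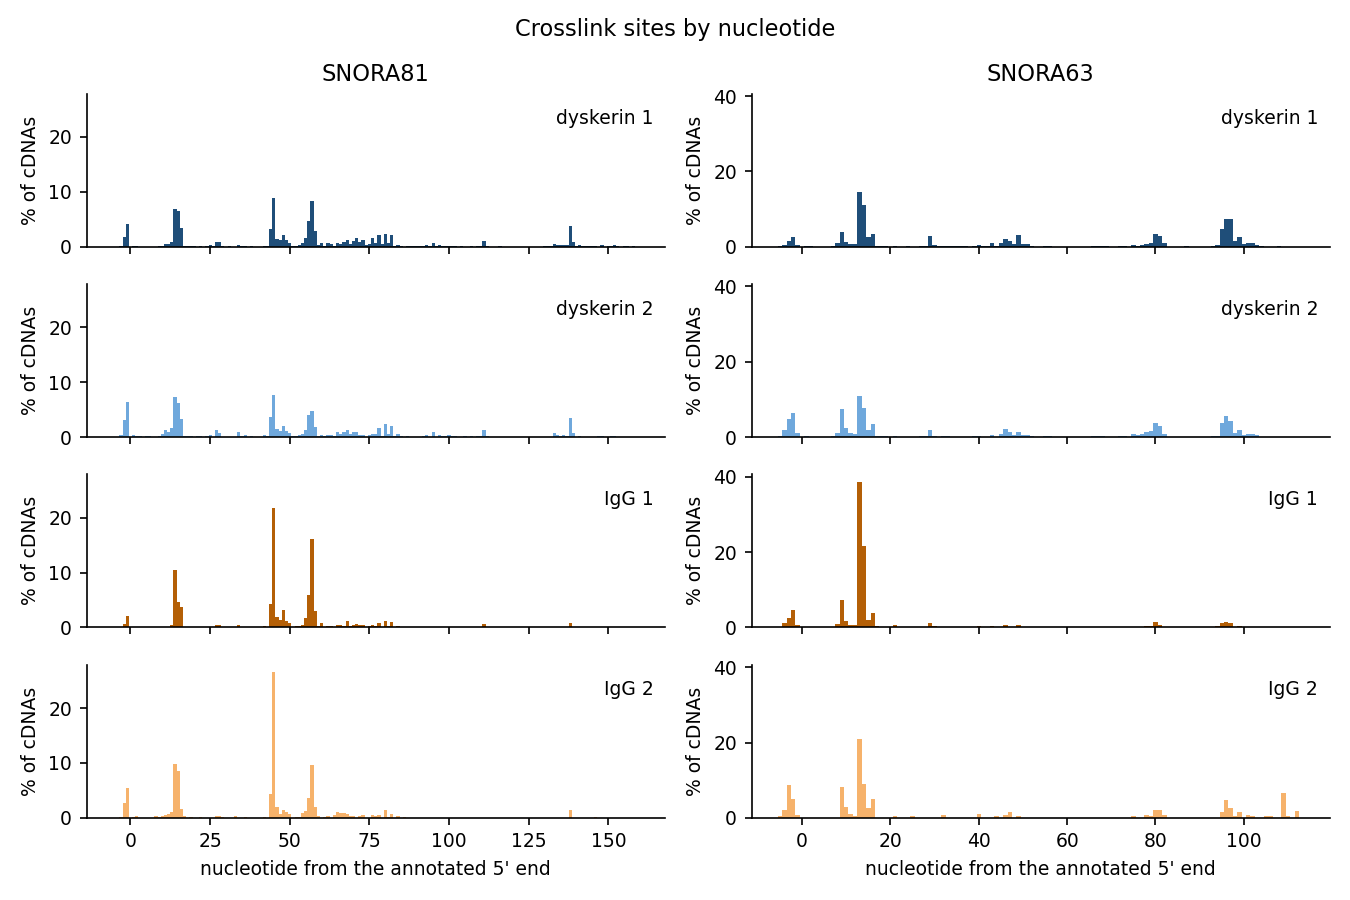
Share of the cDNAs of SNORA81 (left) and SNORA63 (right) at each nucleotide from the annotated 5′ end (%, vertical axis, the same scale in the 4 panels of a guide), with 1 panel for each library. Base 45 of SNORA81 and base 13 of SNORA63 stand out in the IgG panels at 20.9% to 38.7%, and the dyskerin panels spread over more bases, including those around base 96 of SNORA63.

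This held over the guides. The fullest nucleotide of dyskerin replicate 1 was also the fullest in dyskerin replicate 2 in 41 of the 62 RNAs, in IgG replicate 1 in 43 and in IgG replicate 2 in 35. The nucleotide chosen in dyskerin replicate 2 held a median of 14.4% of the cDNAs of an RNA in dyskerin replicate 1, a library that did not choose it. It held 21.7% in IgG replicate 1 and 19.0% in IgG replicate 2. The nucleotide chosen in IgG replicate 1 held 18.7% in IgG replicate 2, and 14.5% and 14.8% in the dyskerin libraries. The nucleotide chosen in dyskerin replicate 2 was the fullest of IgG replicate 1 itself in 42 of the 62 RNAs and of IgG replicate 2 in 38.

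In coding sequence the strongest sites were present in IgG replicate 1 as well. Among the genes with the highest site by the lower of the 2 dyskerin counts, 6 are shown with 15 nt on either side of the crosslinked base, which is the capital. The windows are chr14:102084950-102084980 on the minus strand in HSP90AA1, chr6:44250309-44250339 on the plus strand in HSP90AB1, chr7:26196425-26196455 on the minus strand in HNRNPA2B1, chr2:231460774-231460804 on the minus strand in NCL, chr9:35685451-35685481 on the minus strand in TPM2 and chr17:50746589-50746619 on the plus strand in LUC7L3.
HSP90AA1: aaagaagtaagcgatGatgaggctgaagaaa
HSP90AB1: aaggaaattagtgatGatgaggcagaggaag
HNRNPA2B1: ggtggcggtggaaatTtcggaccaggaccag
NCL: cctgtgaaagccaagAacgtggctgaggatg
TPM2: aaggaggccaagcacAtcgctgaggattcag
LUC7L3: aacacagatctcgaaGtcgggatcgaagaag

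The site of HSP90AA1 held 87 and 98 cDNAs for dyskerin and 15 and 2 for IgG. That of its paralog HSP90AB1 held 75 and 105 against 18 and 0, and the windows share 24 of 31 bases, so reads may have been placed on either gene. The site of HNRNPA2B1, a binder of nascent transcripts, held 72 and 102 cDNAs against 9 and 0, and that of NCL 68 and 94 against 14 and 0. TPM2, a tropomyosin, had 56 and 62 against 8 and 0, and the splicing protein gene LUC7L3 51 and 119 against 17 and 0. Per peak cDNA, IgG replicate 1 was above both dyskerin libraries at all 6, for example 102 against 51.4 and 52.3 CPM at HSP90AA1. The crosslinked base was G at 3 of the sites, A at 2 and T in HNRNPA2B1.

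Crosslinked bases in coding sequence were rich in uridine in every library. Uridine made up 29.7% of the sites of each dyskerin library, 27.4% in IgG replicate 1 (26.8 to 28.0) and 32.7% in IgG replicate 2 (27.2 to 38.7), against 21.9% of the coding sequence itself. The difference of the group means was -0.32 percentage points, less than the SD of 3.72 between the controls. Cytidine was higher in both dyskerin libraries, at 21.4% and 21.5% against 18.7% and 18.1% for IgG and 26.1% of the sequence. Guanosine was lower in both, at 22.6% and 21.6% against 23.95% and 23.2%, and adenosine overlapped. With sites of at least 3 cDNAs uridine rose to 38.0% and 37.5% for dyskerin and 35.8% for IgG replicate 1, while IgG replicate 2 had 0 of 10 such sites at uridine. Within H/ACA snoRNAs uridine was lower in dyskerin, at 31.0% and 30.6% of sites against 33.3% and 35.6%, and guanosine higher, at 24.0% and 24.2% against 21.6% and 20.4%. Each site was counted once, over 8274 and 9486 sites for dyskerin and 2899 and 1383 for IgG. Calls made within each library leave out weak sites in a smaller library first, and the part of this in the guide bases was not tested.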

How the data were processed

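The data were 4 iCLIP libraries, dyskerin and its IgG with 2 replicates each. According to the methods, the authors trimmed reads with Cutadapt, aligned them to GRCh38 with STAR 2.7.0e and used iCount to call significant sites in each library by itself (window of 3 nt either side, 100 permutations, false discovery rate 0.05, GENCODE 27, up to 50 alignments). The deposited values are counts of cDNAs per site, not normalized. Submitters' processing notes also name FastQC 0.11.9.

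Counts were summed by strand over genes of GENCODE 44 with 103 RefSeq snoRNAs and scaRNAs added. SnoRNAs and scaRNAs came before other short RNAs, coding sequence, UTRs, exons and introns, and 5 nt upstream of a short RNA were counted with it. Sums were scaled to all peak cDNAs. All 8 libraries entered edgeR 4.0.16 (quasi-likelihood F test, 4 groups, no TMM, at least 10 counts in at least 2 libraries, Benjamini-Hochberg under 0.05), with R 4.3.3 and limma 3.58.1, and DESeq2 1.42.0 as an alternative. On simulated data with the depths and spread of these libraries the fit recovered hardly any of the changed genes, and with equal depths and a small spread nearly all, so a gene that is not called may still differ. Shares have Wilson 95% intervals, ratios exact binomial intervals, and groups exact permutation tests (scipy 1.17.1). An RNA at 0 was given a floor of 3 counts per library. PCR duplicates were collapsed by barcode, and intervals cover counting error only.

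Genes named were the 5 strongest of each class, the 10 in each direction furthest above or below both controls among those with a mean of at least 400 CPM, the strongest 4 of each list, and genes named by the study or known for the complex. Not every gene that the rule gives is reported here, and genes outside it were named after their values were seen. Members and lists were chosen with earlier results of these data known. The alternatives were other scaling, filters, sites, annotation, replicate blocks and libraries left out.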

Additional observations from a re-analysis of the deposited data

How the results depend on the processing

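The 7 edgeR calls became 0 with TMM or DESeq2, 26 with no filter on low counts, 770 with at least 50 counts in 2 libraries, 852 with the 4 libraries fitted alone and 1 with a mean of at least 400 CPM. Of the 7 genes themselves, 7 were among the 26, 1 among the 770, 1 among the 852 and 0 with the mean of at least 400 CPM. With the replicate block the count was 1, SNORA81. Dyskerin and IgG replicates of one number correlated at 0.087 over 6423 genes in their deviations. IgG replicate 2 had sites in only 666 genes, so this value cannot show whether libraries of one number were prepared together. Leaving out 1 library gave 0 to 7 calls, with 0 without dyskerin replicate 1 or IgG replicate 2, and without IgG replicate 1 3 of the 7 were shared. Sites of at least 3 cDNAs, exact ends and clusters gave 8, 6 and 9, and exons and introns as separate rows, chosen after seeing the data, gave 9. Without IgG replicate 2 the log2 fold change of ADGRB3 turned to 5.87 and that of UNC5D to 2.86, against lowest values with another library left out of -7.30 and -11.07.

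The differences in the shares of H/ACA snoRNAs and protein-coding genes kept their direction under every alternative tried, from -45.0 to -1.98 and from 9.72 to 50.95 points with 1 library left out. The coding sequence share of site density differed by 7.62 points in cDNAs, 17.5 with sites of at least 3 cDNAs, 10.5 without normalization to region size, and -2.09 to 4.72 with 1 library left out, negative without IgG replicate 2. The share past the midpoint of H/ACA RNAs differed by 8.07 points with at least 50 cDNAs in the library itself, 9.17 pooled over RNAs, 14.8 with each site counted once, and 6.35 to 8.12 with 1 library left out. Uridine differed by 2.68 points in cDNAs and 19.8 with sites of at least 3 cDNAs, where IgG replicate 2 had 10 sites, and by -2.95 to 2.31 with 1 library left out, positive without IgG replicate 2. The causes were not tested. In IgG replicate 2 a single cDNA weighs 122 CPM.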
